A study of Homo sapiens with 60 samples.

Results

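Genes of glycolysis and of the response to low oxygen were followed in HT29, an established human colorectal adenocarcinoma line, after 24 h with hot-water extracts of medicinal herbs. The set was named as 38 genes that run from glucose import through the glycolytic enzymes to lactate export and on to the hypoxia-inducible factor and its common targets. A named gene was kept where its mean level reached 1 CPM (counts per 1e6 counts, on scaled library sizes) in at least 1 of 22 groups of libraries. That left 36 of the 38 genes, and all 36 were among the 17049 genes tested, of 60675 in the deposited table. The glucose transporter gene SLC2A3 did not exceed a group mean of 0.0364 CPM, and ANGPTL4, a secreted inhibitor of lipoprotein lipase, did not exceed 0.27 CPM, so neither was tested. ANKRD37, an ankyrin repeat gene known as a hypoxia target, lay just inside the minimum at 1.02 CPM in 1 group, Menthae Herba at its high dose, and at 0.603 CPM in vehicle libraries.

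Of the extracts, 5 were of formulas of several herbs (Soyo-san, Okbyeongpung-san, Saengmaek-san, Guibi-tang, Soshiho-tang) and 2 of single herbs, namely Menthae Herba, which is mint, and Saposhnikoviae Radix. Cells received each of them at 20 µg/mL (low), 100 µg/mL (medium) and 500 µg/mL (high). There were 3 libraries for each dose of every extract other than Soshiho-tang, which had 1 library per dose, and 3 vehicle libraries from HT29 cells given DMSO. The sample characteristics put the vehicle at 0.1% DMSO and the series' design text at 2%, and the labels used here do not say whether extract-treated cells were also given DMSO. Nothing in the labels says that the 3 libraries of a group came from separate cultures, so p-values measure the spread of these libraries alone, and that spread may be technical. In such bulk RNA, fewer cells that express a gene and less of its RNA per cell cannot be told apart.

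Library totals lay between 19.5 and 41.9 (median 29.2) in units of 1e6 counts. All 10 markers of colon epithelium that were looked up were detected, with summed levels between 10690 and 14500 CPM, while the leukocyte genes PTPRC, CD3E and MS4A1 stayed below 1 CPM in every group. Of the other cell type markers, CD14, CD68 and LYZ of leukocytes, 2 of 6 fibroblast and 1 of 4 endothelial markers reached 1 CPM in a group, with summed levels of all 6 leukocyte markers between 1218 and 1682 CPM, of the fibroblast markers up to 3.32 CPM and of the endothelial markers up to 1.99 CPM. The first principal component split the libraries at 1 point of their numbering, into 31 earlier ones (median total 34.7) and 29 later ones (median total 24.9, in the same units), and the part that depth has in this split was not tested. Both single herbs and vehicle were wholly earlier-numbered. The libraries of Okbyeongpung-san, Soyo-san and Soshiho-tang were wholly later-numbered, while those of Guibi-tang and Saengmaek-san were spread over both parts. The same 3 vehicle libraries served every comparison with vehicle, so those comparisons are not independent of each other.

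Glycolysis turns glucose into pyruvate in the cytosol. Glucose enters through transporters such as GLUT1 (SLC2A1), is trapped by hexokinase, is committed to breakdown by phosphofructokinase, and leaves as lactate when pyruvate is reduced by lactate dehydrogenase and exported by monocarboxylate transporters. When oxygen is scarce, prolyl hydroxylases of the EGLN family no longer mark the hypoxia-inducible factor subunit HIF-1α for destruction, and the factor raises transcription of many of these same genes together with targets such as VEGFA and CA9. HIF-1α is controlled largely as a protein, which these data do not measure, and colorectal cancer lines are known for high glucose use also when oxygen is plentiful.

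The levels of the members in vehicle libraries spanned a wide range. Per kilobase of annotated exon in vehicle libraries, levels were 1005 CPM per kb for GAPDH (glyceraldehyde-3-phosphate dehydrogenase), 311 for pyruvate kinase PKM, 295 for enolase ENO1 and 291 for aldolase ALDOA, at the top of the set. The transporter gene SLC2A1 stood at 107 CPM per kb, HIF1A, which encodes HIF-1α, at 21.2, the hexokinases HK1 and HK2 at 22.9 and 10.96, and the angiogenic growth factor gene VEGFA at 4.76. Lowest among the tested members were the mitophagy gene BNIP3 at 0.586, PFKFB4, whose product sets the level of a phosphofructokinase activator, at 0.576, and ANKRD37 at 0.234 CPM per kb. Among phosphofructokinases the platelet type PFKP led with 25.8 CPM per kb, ahead of muscle type PFKM with 9.17 and liver type PFKL with 9.14. Before division by length they had 124.8, 67.1 and 81.6 CPM in that order of genes. The divisor is all annotated exon of a gene, here 4836, 7318 and 8926 bp, and may exceed the transcripts made, so levels per kb compare genes only roughly. Some levels carry an added doubt, since GAPDH has 62, BNIP3 39 and PGAM1 13 processed pseudogenes by name. SLC16A3 shares exons with an opposite-strand neighbour, CSNK1D, at 171 CPM, PFKM with SENP1 at 43.0 CPM, CA9 with ARHGEF39 at 24.1 CPM and ANKRD37 with UFSP2 at 8.205 CPM, and the strand setting of the counting is not given in the sources used here.

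The promoters of all members were searched for ACGTG, a core at which the hypoxia-inducible factor is known to bind. CACGT, the same letters on the other strand, was searched as well. The search covered the 250 bases before each RefSeq start (GRCh38.p14). A palindromic CACGTG, which is also an E-box, counts as 1 match on each strand. RefSeq windows were found for 33 of the 38 named genes, and 20 of these 33 genes (60.6%) held a match in at least 1 window, against 21.7% of 27305 genes in all. By window, 23 of the 61 of the members held one (37.7%), against 18.5% of 35116 windows in all. The members also have more windows per gene, which raises the share counted by gene. The set was named to include common targets of this factor, so a higher share follows from that choice and was not read as a result. Of the members that rose under Menthae Herba at the high dose, described next, 8 of 11 with a window held a match, and of the other members 12 of 22. BNIP3L, SLC16A1, NDRG1, VEGFA and SLC2A3 are named only. Shown here are exon-free stretches for 4 genes of the pathway that rose, with the searched letters in capitals: HK2 at chr2:74834920-74835169, PFKP at chr10:3068939-3069188, PGK1 at chrX:78103998-78104173 and LDHA at chr11:18394313-18394387, all on the plus strand.
HK2: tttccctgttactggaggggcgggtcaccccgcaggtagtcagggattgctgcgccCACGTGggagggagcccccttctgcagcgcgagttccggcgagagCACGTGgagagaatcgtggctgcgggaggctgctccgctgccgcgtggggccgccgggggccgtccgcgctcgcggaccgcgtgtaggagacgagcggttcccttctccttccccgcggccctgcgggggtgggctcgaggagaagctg
PFKP: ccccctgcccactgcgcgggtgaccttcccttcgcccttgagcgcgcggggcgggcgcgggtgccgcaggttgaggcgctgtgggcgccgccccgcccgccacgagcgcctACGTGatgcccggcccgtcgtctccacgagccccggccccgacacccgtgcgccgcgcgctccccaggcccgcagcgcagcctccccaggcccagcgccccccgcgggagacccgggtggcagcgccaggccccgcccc
PGK1: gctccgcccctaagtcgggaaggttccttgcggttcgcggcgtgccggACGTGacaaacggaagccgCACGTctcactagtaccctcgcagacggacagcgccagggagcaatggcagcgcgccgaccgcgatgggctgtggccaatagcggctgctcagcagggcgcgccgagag
LDHA: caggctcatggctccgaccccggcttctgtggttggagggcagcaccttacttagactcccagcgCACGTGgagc
The HK2 stretch holds CACGTG at 2 places, the LDHA stretch holds it once, the PGK1 stretch holds 1 match on each strand and the PFKP stretch 1 on the plus strand. SLC2A1, PGAM1 and ENO1, which also rose, had no match in their windows. A match describes the letters and not binding.

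Menthae Herba at 500 µg/mL was the condition with the most member calls among the groups with 3 libraries. By edgeR's quasi-likelihood test with Benjamini-Hochberg adjustment over all genes (threshold 0.05), 12 of the 36 members rose and none fell, where 8.57% of all tested genes were called in either direction and 4.59% higher. The members that rose were the importer SLC2A1, 8 of 15 glycolytic enzymes, the regulator PFKFB3, and LDHA and SLC16A1 of lactate formation and export. Their changes were small, between 0.13 for ALDOA and 0.32 for PFKP on the log2 scale. The median log2 change over the 36 members was 0.15, beside -0.0041 over all tested genes, and 35 members had a change above 0, as did 48.8% of all genes. In 27 members all Menthae Herba libraries lay above all vehicle libraries, which held for 17.4% of all genes. ANKRD37, which reached the minimum level through this group alone, is among these 35 and 27 members and not among the 12. At the high dose of the other extracts, 24 to 29 of the 36 members were above 0, against 49.6% to 52.1% of all genes. Members apart above vehicle numbered 12 with Saposhnikoviae Radix, 11 with Guibi-tang, 11 with Soyo-san, 8 with Saengmaek-san and 6 with Okbyeongpung-san. Those shares of all genes were 12.5%, 10.7%, 18.5%, 10.4% and 14.5% in that order. All of these share the 3 vehicle libraries, where ENO1, PGAM1, HIF1A and SLC16A3 had their lowest group means. Menthae Herba and vehicle libraries are all earlier-numbered. The fit on those libraries alone called 18 members here. A fit with a term for the part of the numbering called 16, the added ones being LDHB, SLC16A3, HIF1A and ADM. With no filter on low counts, GPI, ALDOA, PGK1 and SLC16A1 lost their calls.

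**Figure D1:**
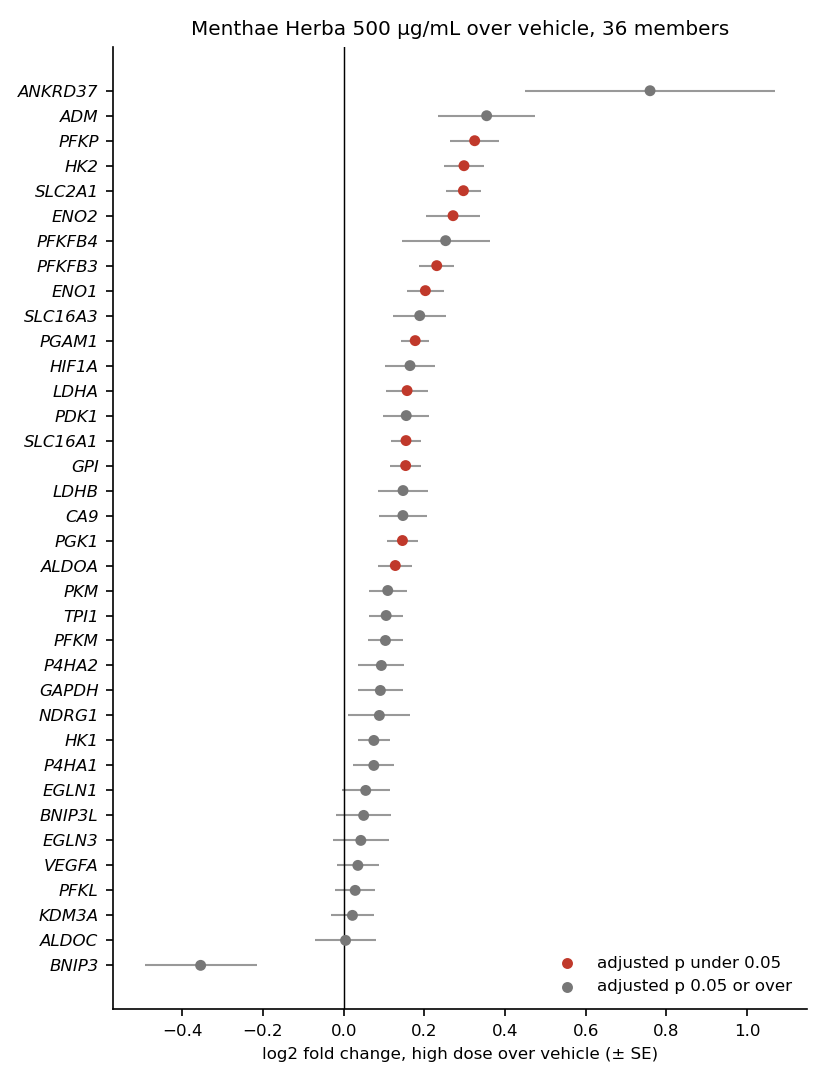
Log2 fold change of each of the 36 tested members in Menthae Herba libraries at 500 µg/mL over vehicle libraries (horizontal axis), with bars of ± 1 standard error (3 libraries in each group). Red points are the 12 members that passed the adjusted threshold of 0.05, and 35 of the 36 points lie to the right of 0, with BNIP3 at -0.35 to the left.

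The smallest p-value among the members was that of the glucose importer. SLC2A1, on chromosome 1 at 42925375-42959176 (GRCh38, minus strand), is the gene of the basal glucose transporter GLUT1. It had 633, 630.5 and 605 CPM in the Menthae Herba libraries, against 532, 494 and 491 CPM in vehicle libraries. The groups did not overlap, and the log2 change was 0.30 ± 0.043 (SE; adjusted p = 2.42e-06, edgeR).

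HK2, on chromosome 2 at 74833981-74893359 (plus strand), encodes the inducible hexokinase that phosphorylates glucose on entry. It had 80.1, 87.1 and 78.7 CPM with Menthae Herba, against 68.5, 64.9 and 66.01 CPM in vehicle. Every treated library was above every vehicle library (log2 0.30 ± 0.05 SE, adjusted p = 4.42e-05, edgeR). The constitutive isozyme HK1 had a log2 change of 0.075 with an adjusted p of 0.267 by edgeR, so it did not pass.

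At the next step GPI, glucose-6-phosphate isomerase, had 818, 823 and 803 CPM against 752, 696 and 743 CPM in vehicle, again without overlap (log2 0.15, adjusted p = 0.00603, edgeR). Phosphofructokinase commits the sugar to glycolysis. PFKP, on chromosome 10 at 3066333-3137712 (plus strand), had 159, 152 and 159 CPM under Menthae Herba, against 127, 128 and 119 CPM in vehicle libraries. This was the largest log2 change among the members that passed, 0.32 ± 0.061 SE, with an adjusted p of 0.000239 (edgeR). For PFKL the log2 change was 0.029 and for PFKM 0.10, and neither passed. The difference between these isoforms was not tested. PFKFB3, whose product makes the activator of phosphofructokinase, had 38.2, 39.1 and 37.3 CPM against 33.6, 31.5 and 32.3 CPM in vehicle (log2 0.23, adjusted p = 0.000207, edgeR). Its relative PFKFB4 had a log2 change of 0.25 and did not pass (adjusted p = 0.149, edgeR).

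Below that point the enzymes that rose were ALDOA, PGK1, PGAM1, ENO1 and ENO2. ALDOA, the main aldolase outside liver and brain, had 1259, 1242 and 1251 CPM with Menthae Herba, against 1177, 1110.4 and 1136 CPM in vehicle. PGK1, phosphoglycerate kinase, had 543, 536 and 527 CPM against 492, 467 and 489 CPM in vehicle. The groups were apart in both genes, with log2 changes of 0.13 for ALDOA (adjusted p = 0.0466) and 0.15 for PGK1 (adjusted p = 0.0116) by edgeR. PGAM1, phosphoglycerate mutase, had 304, 310.1 and 298 CPM against 281, 259 and 264 CPM in vehicle. ENO1, the common enolase, had 1832, 1805 and 1754 CPM against 1618, 1525 and 1529 CPM in vehicle. Neither gene overlapped between the groups, with log2 changes of 0.18 for PGAM1 and 0.20 for ENO1. ENO2, the enolase best known from neurons, had 20.8, 22.1 and 19.9 CPM with Menthae Herba, against 18.2, 16.8 and 16.96 CPM in vehicle (log2 0.27, adjusted p = 0.00545, edgeR). The brain aldolase ALDOC (log2 0.0047), TPI1 (0.11), GAPDH (0.091) and PKM (0.11) did not pass.

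At the lactate end, LDHA, which favours the reduction of pyruvate to lactate, had 972, 1014 and 1003 CPM with Menthae Herba, against 911, 898 and 863 CPM in vehicle (log2 0.16, adjusted p = 0.046, edgeR). SLC16A1, the monocarboxylate transporter MCT1, had 144, 149.9 and 146 CPM against 129.9, 134 and 130.0 CPM in vehicle, all apart (log2 0.15, adjusted p = 0.0036, edgeR). Values that did not pass were log2 0.15 for LDHB, 0.19 for the exporter SLC16A3 (MCT4) and 0.16 for PDK1, a kinase that closes the entry of pyruvate into mitochondria. With the numbering term LDHB (adjusted p = 0.0348) and SLC16A3 (adjusted p = 0.0209) passed by edgeR. ALDOA and LDHA were the least firm of the 12, since each lost its call whichever of the 6 libraries was left out, with adjusted p up to 0.194 for ALDOA and 0.165 for LDHA (edgeR). GPI lost its call without vehicle replicate 2, PGK1 without vehicle replicate 2 or Menthae Herba replicate 1, and ENO2 without Menthae Herba replicate 2.

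None of the 3 oxygen sensing members and none of the 10 tested hypoxia targets outside glycolysis passed in this comparison without the numbering term, and HIF1A and ADM passed with it. HIF1A, on chromosome 14 at 61695513-61748259 (plus strand), had 120.2, 122 and 126 CPM with Menthae Herba, against 102, 112 and 114 CPM in vehicle. The libraries were apart, yet the log2 change of 0.16 did not pass (adjusted p = 0.0886, edgeR). With the numbering term, which cannot correct a comparison within 1 part, its log2 change was again 0.16 and passed (adjusted p = 0.0147, edgeR). The hydroxylase genes EGLN1 and EGLN3 had log2 changes of 0.055 and 0.043. VEGFA had 73.03, 71.6 and 67.1 CPM against 70.1, 68.1 and 67.9 CPM in vehicle, which overlapped (log2 0.035, adjusted p = 0.767, edgeR). ADM, the gene of the vasodilator peptide adrenomedullin, came nearest with log2 0.35 and an adjusted p of 0.0527 (edgeR), at 3.31, 3.29 and 3.62 CPM with Menthae Herba, against 2.54, 2.67 and 2.74 CPM in vehicle. With the numbering term ADM passed (log2 0.35, adjusted p = 0.0431, edgeR). ANKRD37 entered the set through this group alone, so its difference here follows from the rule and was not read as a result. CA9, a pH-regulating carbonic anhydrase, had log2 0.15, the collagen hydroxylases P4HA1 and P4HA2 0.075 and 0.093, the histone demethylase gene KDM3A 0.022, NDRG1 0.088 and the mitophagy gene BNIP3L 0.05. BNIP3 was the member with a value below 0, at -0.35 (adjusted p = 0.105, edgeR). The difference between the glycolytic members and the other hypoxia targets was not tested.

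Lower doses of Menthae Herba gave no member call in the reported fit. By edgeR, 0 members passed at 20 µg/mL, where 0.0587% of all genes were called, 6 members were under an unadjusted p of 0.05 and DESeq2 called 2. At 100 µg/mL 0 members passed (0.739% of all genes), 10 were under an unadjusted p of 0.05 and DESeq2 called 2. PGK1 came nearest at 20 µg/mL (adjusted p = 0.125, edgeR), where its group mean of 537 CPM was its highest of all groups. With the numbering term its log2 change at 20 µg/mL was 0.15 and passed (adjusted p = 0.0415, edgeR). Between the high and the low dose PGK1 was at log2 -0.0045 with that term, so its rise was not particular to the high dose. Group means rose in the order low, medium, high in 18 of 36 members and fell in 1, while 23.3% of all genes rose in that order and 21.1% fell. The same order was seen in 16 rising and 3 falling members with Saengmaek-san (21.5% and 19.4% of all genes), 14 and 5 with Soyo-san (22.4% and 18.4%), 9 and 8 with Saposhnikoviae Radix (19.5% and 17.5%), 6 and 2 with Okbyeongpung-san (15.9% and 14.2%) and 5 and 8 with Guibi-tang (17.6% and 19.02%), and the difference between extracts was not tested. The high dose tested against the low dose directly gave 5 members higher and none lower, with 2.36% of all genes called, and 1 to 4 members without 1 library. These were SLC2A1 (log2 0.27), HK2 (0.20), PFKP (0.25), PFKFB3 (0.15) and ADM (0.45, adjusted p = 0.0263, edgeR).

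SLC2A1 shows the shape of the dose series. It had 515, 524 and 514 CPM at 20 µg/mL, 523, 537 and 501 CPM at 100 µg/mL and 633, 630.5 and 605 CPM at 500 µg/mL. The low and medium libraries lay near the vehicle libraries and only the high-dose libraries stood clear of them. PFKP had 131, 134 and 129 CPM at the low and 133, 147 and 134 CPM at the medium dose, all above the highest vehicle library. ADM had 2.13, 2.99 and 2.32 CPM at the low dose and 3.31, 3.29 and 3.62 CPM at the high dose. Its call rests on few counts, and it was lost in 5 of the 6 leave-outs of 1 library.

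**Figure D2:**
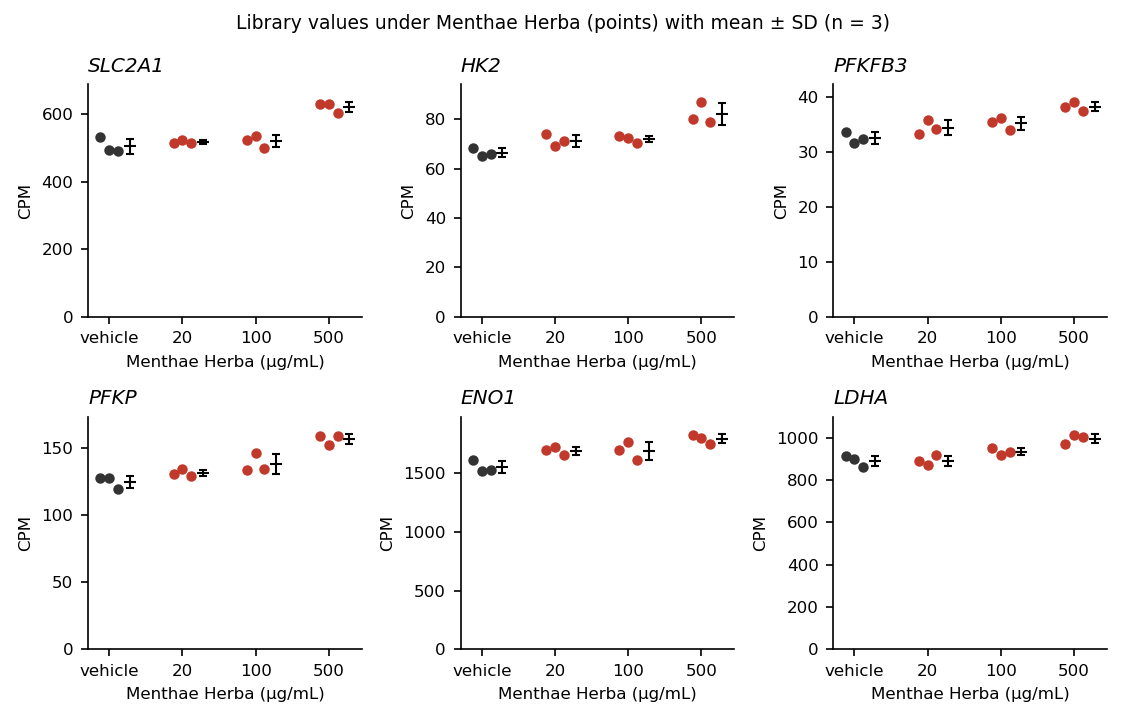
Levels in CPM (vertical axes, from 0) of SLC2A1, HK2, PFKFB3, PFKP, ENO1 and LDHA in single libraries of vehicle and of Menthae Herba at 20, 100 and 500 µg/mL, with the mean ± SD of 3 libraries beside each group. In SLC2A1 the 3 high-dose libraries sit between 605 and 633 CPM, above every other point.

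Against the other single herb at the same dose, 5 members were higher with Menthae Herba than with Saposhnikoviae Radix and none lower, where 1.1% of all genes differed. SLC2A1 had 633, 630.5 and 605 CPM with Menthae Herba, against 534, 528 and 511 CPM with Saposhnikoviae Radix (log2 0.25, adjusted p = 0.000318, edgeR). HK2 differed by log2 0.20, PFKP by 0.24, ALDOA by 0.17 and PFKFB4 by 0.42. Only the SLC2A1 call held without each single library in turn. PFKFB4 had 4.62, 4.05 and 3.96 CPM with Menthae Herba, against 2.91, 3.12 and 3.40 CPM with Saposhnikoviae Radix, so its difference rests on low levels. All libraries of both herbs were in the earlier part of the numbering.

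For Saposhnikoviae Radix against vehicle, the edgeR count of members was 0 at 20, 100 and 500 µg/mL, where 0.17%, 0.0293% and 0.499% of all genes were called at these doses in turn. At an unadjusted p under 0.05 there were 5 members at the low, 3 at the medium and 9 at the high dose, and DESeq2 called 0, 0 and 1. The nearest was the lactate transporter SLC16A1 at the high dose, with 147, 144 and 138 CPM against 129.9, 134 and 130.0 CPM in vehicle (log2 0.12, adjusted p = 0.115, edgeR). The high against the low dose gave 0 members by edgeR (0.0293% of all genes), 3 at an unadjusted p under 0.05 and 0 by DESeq2.

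Saengmaek-san at the high dose had 2 of 36 members higher and none lower, a count near the 4.28% of all genes called. PGAM1 had 300.2, 289.9 and 281 CPM against 281, 259 and 264 CPM in vehicle, and PGK1 had 539, 533 and 507 CPM against 492, 467 and 489 CPM in vehicle. The log2 changes were 0.12 for PGAM1 (adjusted p = 0.0415) and 0.13 for PGK1 (adjusted p = 0.0485) by edgeR, and both calls were lost when any 1 library was left out. The earlier-numbered libraries alone, with 2 of the 3 Saengmaek-san libraries, gave 6 members, and the numbering term gave 5. By edgeR 0 members passed at the low dose (0.0938% of all genes; 3 at an unadjusted p under 0.05; 0 by DESeq2), at the medium dose (0.416%; 6; 0) and between the high and the low dose (0.0235%; 3; 0).

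Guibi-tang gave no member call by edgeR at any dose. The low dose had 0 members, 10 at an unadjusted p under 0.05 and 3 by DESeq2, with 0.85% of all genes called. At the medium dose there were 0, 5 and 0 members with 1.07% of all genes, and at the high dose 0, 13 and 2 with 2.26%. PFKP came closest at the high dose, with 134, 142 and 156 CPM, against 127, 128 and 119 CPM in vehicle (log2 0.21, adjusted p = 0.0571, edgeR). The highest of these 3 libraries is the later-numbered one, and the earlier-numbered libraries alone gave 4 members at the high dose. Between the high and the low dose 0 members passed (6 at an unadjusted p under 0.05, 0 by DESeq2, 0.352% of all genes). Guibi-tang against Saengmaek-san at the high dose also gave 0 members (2 at an unadjusted p under 0.05, 0 by DESeq2, 0.37% of all genes).

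**Figure D3:**
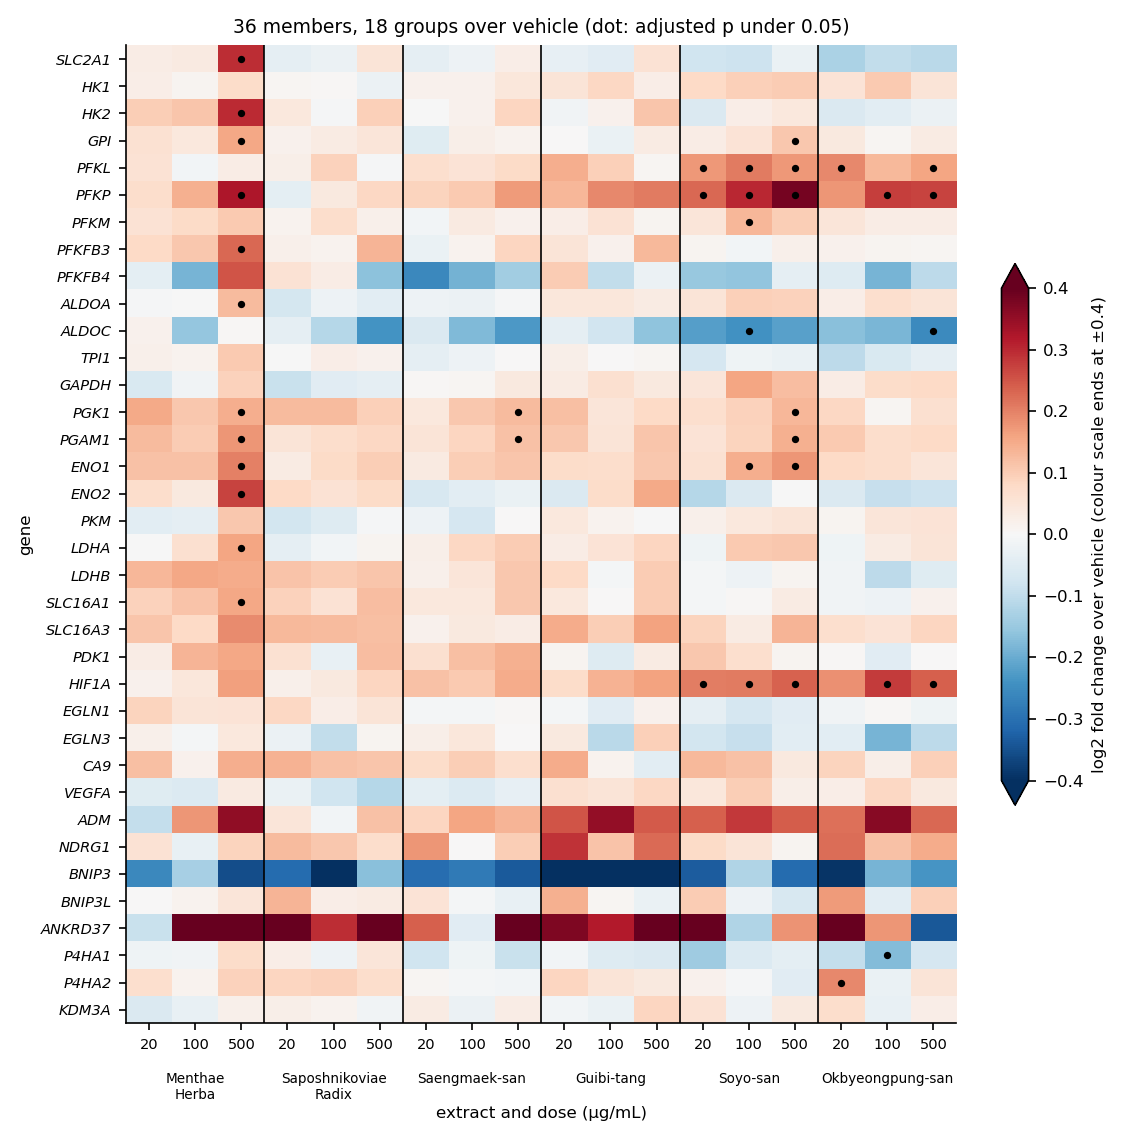
Log2 fold change over vehicle (colour, scale ending at ± 0.4) of the 36 tested members (rows) in the 18 extract and dose groups with 3 libraries each (columns, low to high dose within each extract). Dots mark an adjusted p under 0.05: 12 dots stand in the Menthae Herba column at 500 µg/mL, and the dots under Soyo-san and Okbyeongpung-san gather on PFKP, PFKL and HIF1A.

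Soyo-san, a formula whose usual recipe includes mint, had 3 members higher and none lower than vehicle at the low dose, 5 higher and 1 lower at the medium dose, and 7 higher and none lower at the high dose. Of all genes 3.93% were called at the low, 9.87% at the medium and 14.5% at the high dose. Leaving out 1 library gave 0 or 1 member at the low dose, 3 at the medium dose whichever library was left out, and 3 to 9 at the high dose (3 without high-dose replicate 1). The median member change at the high dose was 0.04, beside 0.003 over all genes. All Soyo-san libraries lie in the later part of the numbering and all vehicle libraries in the earlier part, so extract and numbering cannot be told apart in these libraries alone. The parts were drawn by the first principal component of these same values, so a large share of calls between them follows partly from that choice. A term for the part of the numbering, estimated from Saengmaek-san and Guibi-tang, called 29.6% of all genes and 15 members, 7 higher and 8 lower in the later libraries. Among these PFKP was higher by log2 0.18, HIF1A by 0.17, GAPDH by 0.14 and LDHA by 0.11, while SLC2A1 (log2 -0.10), LDHB (-0.16) and SLC16A3 (-0.14) were lower.

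PFKP had 173, 169 and 145 CPM with Soyo-san at the high dose, against 127, 128 and 119 CPM in vehicle (log2 0.38, adjusted p = 1.99e-05, edgeR). With the numbering term the change was log2 0.21 and still passed (adjusted p = 0.00917, edgeR). HIF1A had 130.0, 131 and 124 CPM against 102, 112 and 114 CPM in vehicle, and its log2 change of 0.24 (adjusted p = 0.00809) was 0.066 with the numbering term (adjusted p = 0.546, edgeR). PFKL had 96.1, 88.6 and 90.9 CPM against 82.8, 82.96 and 79.01 CPM in vehicle, with log2 0.17 without and 0.11 with the term, when it no longer passed (adjusted p = 0.236, edgeR). Without the term, PFKL also lost its call without vehicle replicate 3 or Soyo-san replicate 1, and HIF1A without vehicle replicate 1.

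ENO1, PGAM1, PGK1 and GPI also passed with Soyo-san at the high dose, with and without the term, though not under every other setting. ENO1 had 1830.5, 1791 and 1647 CPM against 1618, 1525 and 1529 CPM in vehicle, with log2 0.18 without and 0.24 with the numbering term (adjusted p = 0.00093 with it, edgeR). PGAM1 had 299, 296 and 291 CPM, PGK1 545, 522 and 518 CPM and GPI 781, 796 and 781 CPM. Their log2 changes with the term were 0.17, 0.16 and 0.18 in that order of genes, and all of them still passed. Without the term, GPI lost its call whichever library was left out (adjusted p between 0.0587 and 0.26), PGK1 without vehicle replicate 2 or Soyo-san replicate 1, and ENO1 without Soyo-san replicate 1 or 2, by edgeR. With no filter on low counts GPI, PGK1 and PGAM1 lost their calls, and GPI also with DESeq2's size factors. The exporter SLC16A3 passed with the term and not without it (log2 0.28, adjusted p = 0.00675, edgeR). SLC2A1 did not pass and had a log2 change of -0.026, HK2 had 0.043 and PFKFB3 0.02 without the term. With the term these were 0.077, 0.12 and 0.073 in the same order, so the sign of SLC2A1 turned, and none of the 3 genes passed. The difference between Menthae Herba and Soyo-san was not tested.

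At lower doses of Soyo-san PFKP changed by log2 0.23 at 20 and 0.30 at 100 µg/mL, PFKL by 0.17 and 0.21, and HIF1A by 0.21 and 0.21, and all of these calls were lost with the numbering term. At the medium dose ENO1 (0.14) and PFKM (0.13) also rose, and ALDOC fell by 0.24 on the log2 scale, to 12.5 ± 0.838 CPM, against 14.9 ± 0.946 CPM in vehicle (SD, n = 3 each). With the term, ENO1 kept its call at the medium dose (adjusted p = 0.009, edgeR) and ALDOC did not (adjusted p = 0.298, edgeR). Without the term, ENO1 lost its medium-dose call whichever library was left out (adjusted p up to 0.142, edgeR), with DESeq2's size factors and with no filter. PFKM and ALDOC each lost theirs without 5 of the 6 libraries in turn. The high against the low dose, all within the later part, gave 0 members by edgeR (6 at an unadjusted p under 0.05, 0 by DESeq2, 0.129% of all genes).

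Okbyeongpung-san had 2 members higher than vehicle at the low dose, 2 higher and 1 lower at the medium dose, and 3 higher and 1 lower at the high dose, where 8.79%, 3.75% and 7.4% of all genes were called in that order. Without 1 library these counts were 0 to 2, 0 to 3 and 1 to 3. Among the 36 members, the low-dose count lies below the share of all genes and the high-dose count near it. PFKP had 151, 153 and 144 CPM at the high dose, against 127, 128 and 119 CPM in vehicle (log2 0.27), HIF1A changed by 0.24 and PFKL by 0.16. ALDOC had 11.7, 13.4 and 11.9 CPM against 15.9, 14.7 and 14.04 CPM in vehicle and fell by 0.25 on the log2 scale. The low dose called PFKL (0.19) and P4HA2 (0.19), and the medium dose PFKP (0.28), HIF1A (0.28) and, lower, P4HA1 (-0.17). P4HA2 at the low dose and PFKL at the high dose lost their calls whichever library was left out. ALDOC at the high and P4HA1 at the medium dose kept theirs in 1 of 6 leave-outs. With no filter on low counts these calls of P4HA2, PFKL and P4HA1 were also lost. With the numbering term P4HA2 and PGAM1 passed at the low dose, 0 members at the medium and 0 at the high dose, and PFKP at the high dose was at log2 0.092 (adjusted p = 0.417, edgeR). The high against the low dose gave 0 members by edgeR (2 at an unadjusted p under 0.05, 0 by DESeq2, 0.00587% of all genes). Soyo-san against Okbyeongpung-san at the high dose gave 0 members and 0 genes in all by edgeR (3 members at an unadjusted p under 0.05, 0 by DESeq2), with a PFKP difference of log2 0.11 ± 0.062 (SE).

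**Figure D4:**
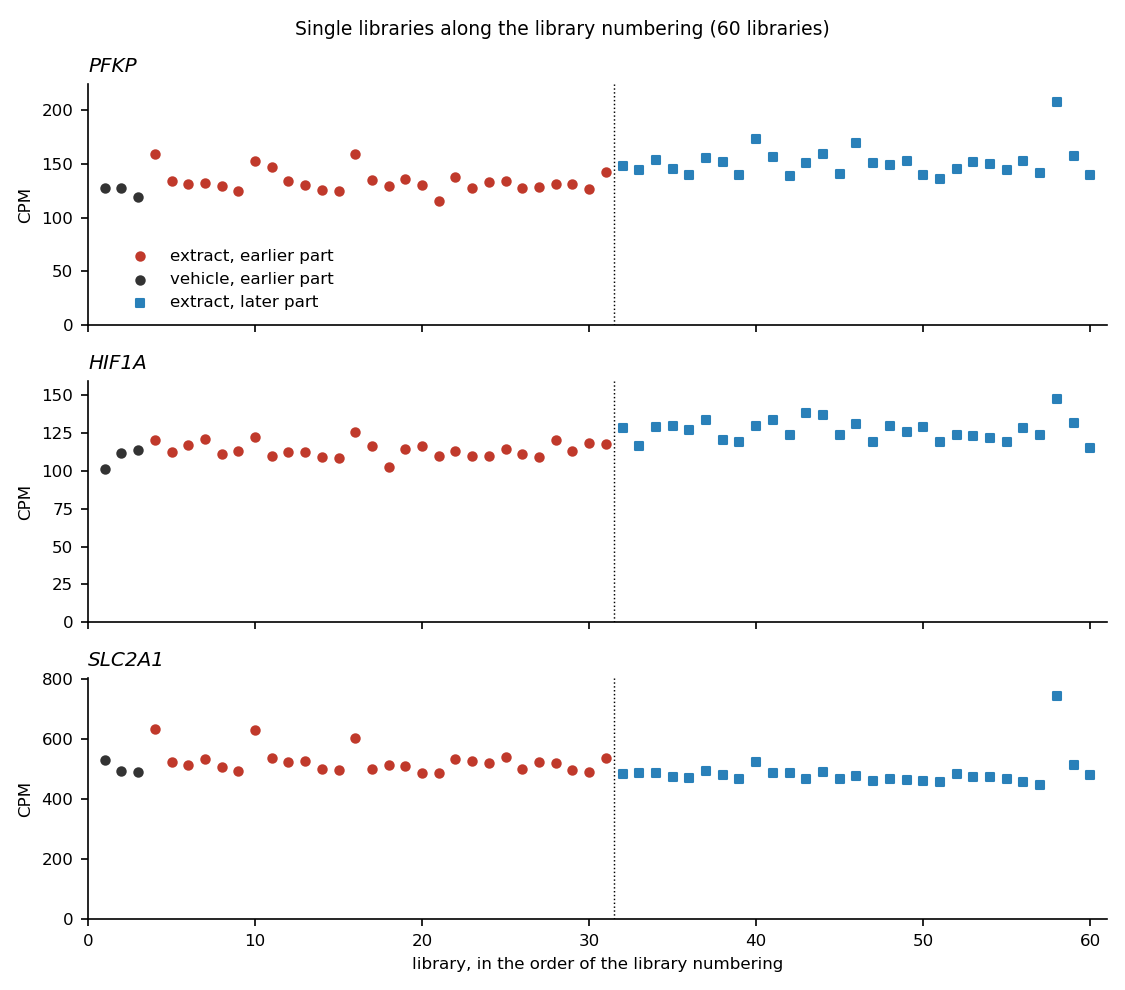
Levels in CPM (vertical axes, from 0) of PFKP, HIF1A and SLC2A1 in each of the 60 libraries in the order of their numbering (horizontal axis), with a dotted line between the 31 earlier and the 29 later libraries. The later libraries sit higher in PFKP and HIF1A (log2 0.18 and 0.17 by the numbering term), and in SLC2A1 the 3 high points on the left are Menthae Herba at 500 µg/mL and the highest on the right is Soshiho-tang at 500 µg/mL.

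Soshiho-tang had 1 library per dose, so its differences have no replicate check and no test. In the low-dose library 9 of the 36 members lay above the range of the vehicle libraries and 16 below, where 28.2% of all genes lay above and 36% below. The counts were 17 above and 9 below at the medium dose (33% and 33.4% of all genes) and 25 above and 5 below at the high dose (36.6% and 39.2%). SLC2A1 had 479 CPM at 20, 513 CPM at 100 and 744 CPM at 500 µg/mL, against 532, 494 and 491 CPM in vehicle, and the high-dose value was the highest of all groups. PFKP stood at 139.7, 157 and 207 CPM from low to high dose, and HIF1A at 115, 131 and 147 CPM. VEGFA, which had no call in any tested comparison, had 82.1 CPM at the high dose, against 70.1, 68.1 and 67.9 CPM in vehicle, and ADM had 5.38 CPM against 2.54, 2.67 and 2.74 CPM in vehicle. Members below the vehicle range at the high dose were LDHB, EGLN1, CA9, BNIP3 and BNIP3L. These libraries are later-numbered.

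**Figure D5:**
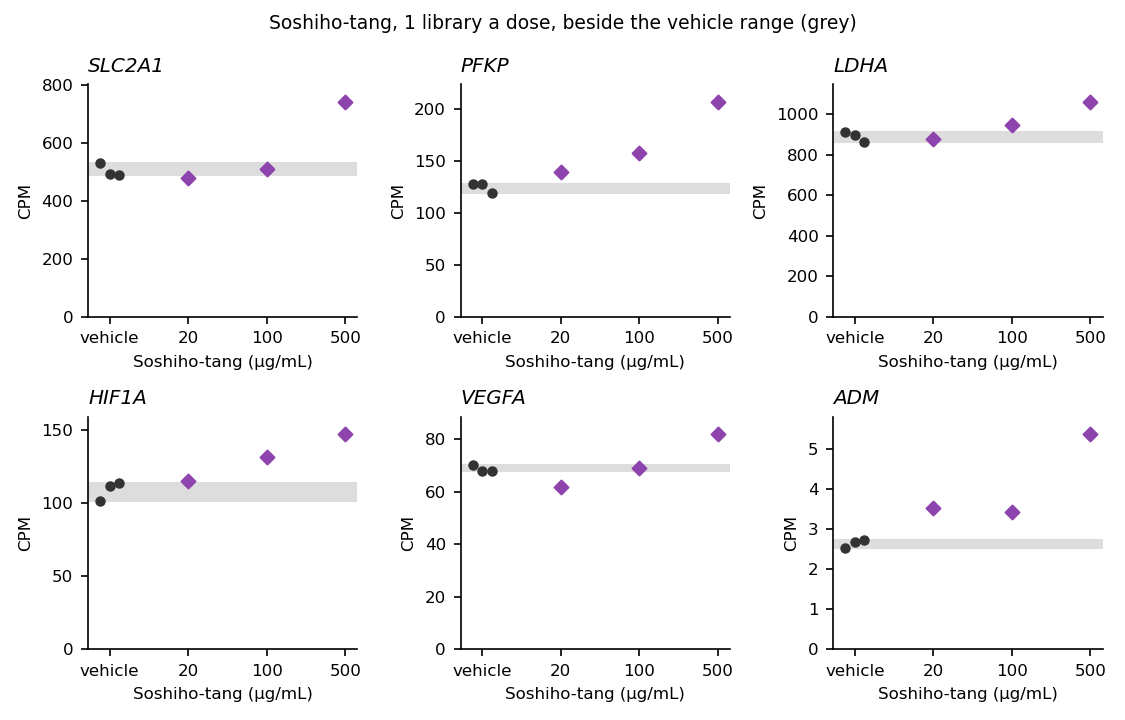
Levels in CPM (vertical axes, from 0) of SLC2A1, PFKP, LDHA, HIF1A, VEGFA and ADM in the 3 vehicle libraries (black points, with their range as a grey band) and in the single Soshiho-tang libraries at 20, 100 and 500 µg/mL (purple diamonds). All 6 genes lie above the vehicle band at 500 µg/mL, SLC2A1 at 744 CPM.

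Other genes of the same processes were read beside the members in Menthae Herba at the high dose, where 4.59% of all genes were higher and 8.57% were called in either direction. Of 16 tested genes for oxygen sensing and the factor's subunits 2 fell and none rose, and those that fell were CITED2, an inhibitor of the factor's coactivator binding, by 0.37 and ARNT, the partner subunit of HIF-1α, by 0.20 on the log2 scale. Of 27 other hypoxia-induced genes 5 rose and none fell, led by the haem oxygenase gene HMOX1 with 20.5 ± 0.48 CPM, against 10.4 ± 0.659 CPM in vehicle (SD, n = 3 each; log2 0.97, adjusted p = 1.34e-10, edgeR), and by TFRC, the transferrin receptor gene, with log2 0.32. Among 41 genes of pyruvate entry, the pentose phosphate pathway and glucose handling, 6 rose and 1 fell. The malic enzyme gene ME1 had 119.9 ± 3.02 CPM, against 82.9 ± 2.31 CPM in vehicle (SD, n = 3 each; log2 0.53, adjusted p = 7.36e-12, edgeR). TKT, transketolase of the pentose phosphate pathway, changed by log2 0.26 and GPD2, mitochondrial glycerol-3-phosphate dehydrogenase, by 0.27. HMOX1, ME1 and TKT are also known targets of the oxidative stress factor NRF2. Of 6 glucose-responsive genes none rose and ARRDC4, an arrestin-like relative of TXNIP, fell by 0.28 on the log2 scale. The median log2 change was 0.011 in the oxygen sensing list, 0.051 in the other hypoxia-induced list, 0.043 in the pyruvate and pentose phosphate list and -0.094 in the glucose-responsive list, beside -0.0041 over all tested genes.

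The same lists were read in the other extracts at the high dose. Of the 16 oxygen sensing genes, 2 rose and 3 fell with Soyo-san (14.5% of all genes called). With Saengmaek-san 1 rose and 2 fell (4.28%), and none was called with Guibi-tang, Okbyeongpung-san or Saposhnikoviae Radix. CREBBP fell with both formulas, by 0.20 and 0.24 on the log2 scale in that order. With Soyo-san EP300 fell by 0.21 and EPAS1 by 0.17, and EGLN2 rose by 0.16. With Saengmaek-san CITED2 fell by 0.34 and CUL2 rose by 0.16. Of the 41 pyruvate, pentose phosphate and glucose handling genes, 11 rose and 1 fell with Soyo-san (14.5% of all genes called), 3 rose with Okbyeongpung-san (7.4%), and 2 each with Saengmaek-san (4.28%), Guibi-tang (2.26%) and Saposhnikoviae Radix (0.499%). The counts for Okbyeongpung-san and Saengmaek-san lie near these shares of all genes. ME1 rose in all of these, with log2 changes of 0.23 for Saposhnikoviae Radix, 0.25 for Saengmaek-san, 0.26 for Guibi-tang, 0.27 for Soyo-san and 0.17 for Okbyeongpung-san. HMOX1 rose with Guibi-tang by log2 0.47. Of the 27 other hypoxia-induced genes, 2 rose and 3 fell with Soyo-san, a count near the 14.5% of all genes called. On the log2 scale ZNF395 fell by 0.30, HILPDA, a lipid droplet gene, by 0.20 and GYS1 by 0.17, while MXI1 rose by 0.18. TXNIP, a brake on glucose uptake, fell by 0.23 with Guibi-tang and by 0.25 with Soyo-san on the log2 scale. The Soyo-san and Okbyeongpung-san values carry the numbering limit given for the members.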

How the data were processed

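Each library holds RNA of HT29 cells taken after 24 h, made with a directional MGIEasy kit and read as pairs of 100 bp, per the labels' protocols. The deposited values are expected counts per gene that the authors made with RSEM 1.3.3, with STAR 2.7.3a, Trim Galore 0.6.5 and FastQC 0.11.9 on GRCh38, per the submitters' processing notes. Which annotation release and strand setting they used is not given in the sources here. Of the values above 0, 27.7% were not whole, since RSEM divides reads that match several genes, and all were rounded before testing.

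After filterByExpr of edgeR 4.0.16 and TMM scaling, genes were tested by its quasi-likelihood test with robust estimation in R 4.3.3, in 1 fit over 57 libraries (19 groups, 38 residual degrees of freedom). All 27 comparisons were adjusted by Benjamini-Hochberg over 17049 genes. CPM uses TMM-scaled library sizes. Soshiho-tang entered no test. The procedure was tested on simulated data. Coordinates and exon lengths come from GENCODE release 29, which may not be the submitters' release.

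The members and gene lists were chosen with earlier results of these data known. Library values are printed for the members called in a high-dose comparison with vehicle (at most 15) and for HIF1A, SLC2A1, HK2, LDHA, PGK1 and VEGFA, for single results that a sentence turns on, and up to 4 called genes with the smallest p are named per other list, of which 1 is not reported here. Library values of ADM and PFKFB4 were added after their values were seen. Same-numbered libraries deviated together (every correlation above 0.1) only between Guibi-tang and Saengmaek-san at the high dose (0.144, 0.129 and 0.286), where the numbers also follow the library numbering. No 2 replicates differed by as little as counting noise (57 pairs, chi-square over degrees of freedom 1.85 or more). The settings varied were size factors of DESeq2, no filter, DESeq2 1.42.0's test, a replicate block, a term for the part of the numbering, the earlier-numbered libraries alone and leaving out each library.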

Additional observations from a re-analysis of the deposited data

Results flagged for a closer look

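The effects of the 2 single herbs at 500 µg/mL, each against the same vehicle, differed in 5 members by edgeR's quasi-likelihood test of Menthae Herba against Saposhnikoviae Radix. The log2 difference was 0.25 for SLC2A1 (adjusted p = 0.000318), 0.20 for HK2 (adjusted p = 0.0209), 0.17 for ALDOA (adjusted p = 0.022), 0.24 for PFKP (adjusted p = 0.0271) and 0.42 for PFKFB4 (adjusted p = 0.0383). In each of these genes the 3 Menthae Herba libraries lay above the 3 Saposhnikoviae Radix libraries. Groups of 3 libraries are too small for a test of single libraries that stand apart.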

How the results depend on the processing

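No called member reversed its direction under any alternative: of 49 calls of a member in a comparison, 16 held under every setting other than leaving out a library, and 9 also without each library. DESeq2's size factors moved the median of all genes by less than 0.1 (log2) in each comparison. Both scalings centre the bulk of genes, so this median could hardly move and does not test the members. With those size factors PGK1 and PGAM1 lost their Saengmaek-san calls at the high dose. With Soyo-san, GPI lost its call at the high dose, and ENO1 and PFKM lost theirs at the medium dose. The cause of the moves below was not tested.

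Menthae Herba against vehicle, at 0 by edgeR, had 2 (DESeq2), 1 (numbering term) and 3 (earlier-numbered libraries alone) members at 20 µg/mL, and 2 (DESeq2) and 5 (earlier-numbered) at 100 µg/mL. High against low dose, 5 in the report, gave 3 with no filter, 9 with the numbering term and 10 with the earlier-numbered libraries, and Menthae Herba against Saposhnikoviae Radix, also 5, gave 3 with no filter and 10 with the earlier-numbered libraries. Saposhnikoviae Radix, at 0, gave with the earlier-numbered libraries 2 at 20, 1 at 100 and 3 at 500 µg/mL, and at 500 µg/mL 1 by DESeq2 and 1 with the numbering term. Saengmaek-san gave 3 at 100 µg/mL with the earlier-numbered libraries, against 0 by the reported fit. At 500 µg/mL, with 2 reported, it gave 0 with size factors, 0 with no filter, 4 by DESeq2, 5 with the numbering term and 6 with the earlier-numbered libraries. Guibi-tang, at 0, gave 1 at each dose with no filter, 3 (DESeq2), 1 (numbering term) and 1 (replicate block) at 20 µg/mL, and 2 (DESeq2), 4 (numbering term) and 4 (earlier-numbered libraries) at 500 µg/mL. Soyo-san gave 1 at 20 and 1 at 100 µg/mL with the numbering term, and 3 at 500 µg/mL with no filter. Okbyeongpung-san gave at 20 µg/mL 1 with no filter, 7 by DESeq2 and 4 with the replicate block, and with the numbering term 0 at 100 and 0 at 500 µg/mL. The replicate block moved no other count by over 1.5 times, and gave 13 members for Menthae Herba at the high dose, against 12 without it.

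Leaving out 1 library gave 8 to 11 members for Menthae Herba at the high dose, 1 to 4 for its high against its low dose (2 without any 1 of the high-dose libraries, 3 without low-dose replicate 1, 1 without low-dose replicate 3), and 1 to 2 for Menthae Herba against Saposhnikoviae Radix. Saengmaek-san at the high dose gave 0 to 0. Guibi-tang gave 0 to 1 at the low dose (1 without its replicate 1 or vehicle replicate 3), 0 to 3 at the medium (3 without its replicate 1) and 0 to 1 at the high dose (1 without its replicate 1). Soyo-san gave 0 to 1 at the low dose (1 without its replicate 1 or vehicle replicate 2, otherwise 0), 3 to 3 at the medium and 3 to 9 at the high dose (3 without its replicate 1). Okbyeongpung-san gave 0 to 2 at the low dose (0 without its replicate 3, 1 without its replicate 1 or vehicle replicate 2 or 3), 0 to 3 at the medium (0 without its replicate 1, 1 without vehicle replicate 1 or 3) and 1 to 3 at the high dose (1 without its replicate 1 or vehicle replicate 1, 2 without its replicate 3 or vehicle replicate 2 or 3). The fit on earlier-numbered libraries had no value for Soyo-san and Okbyeongpung-san, nor for Guibi-tang at the low and medium doses, which have fewer than 2 libraries there.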

Other observations

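BNIP3, a mitophagy gene known as a hypoxia target, had a log2 value below 0 in each of the 18 comparisons with vehicle, between -0.51 with Guibi-tang at the medium dose and -0.12 with Soyo-san at the medium dose, and passed in none (edgeR adjusted p of 0.0581 or more). With the numbering term the direction was not uniform: BNIP3 was at log2 0.054 with Soyo-san at the medium dose, and at -0.062 with Okbyeongpung-san at the high dose. The single Soshiho-tang libraries had 3.14, 2.77 and 2.65 CPM in the order of dose, against 2.77, 3.14 and 3.44 CPM in the vehicle libraries, which all 18 comparisons share. BNIP3 has 39 processed pseudogenes by name.

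SLC16A3, the lactate exporter MCT4, had its highest group mean with Menthae Herba at 500 µg/mL, 54.02 CPM, and its lowest in vehicle libraries, 47.3 CPM. It was lower in later-numbered libraries by the numbering term (log2 -0.14). With that term SLC16A3 passed by edgeR in 5 comparisons with vehicle: Menthae Herba at the high dose (log2 0.19, adjusted p = 0.0209), Guibi-tang at the low (0.24, adjusted p = 0.0339) and high dose (0.21, adjusted p = 0.0325), and Soyo-san at the low (0.23, adjusted p = 0.0367) and high dose (0.28, adjusted p = 0.00675). Without it, SLC16A3 passed in none.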
